A study of Mus musculus with 47 samples.

Results

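The nuclear-encoded subunits of oxidative phosphorylation were followed in the liver across 8 groups of mice that differed in sex, Pxr genotype and treatment. The genes were taken by symbol from the gene probes of the array (names starting Ndufa, Ndufb, Ndufc, Ndufs or Ndufv with a number, Sdha to Sdhd, Uqcr, Cox4 to Cox8 followed by a, b or c, and Atp5), with 1 probe per gene, the one with the highest mean log2 signal over all arrays. The rule gave 82 of the 36693 gene symbols with a probe: 37 in complex I, 4 in complex II, 8 in complex III, 15 in complex IV and 18 in complex V. Of these, 81 passed the filter on dim probes and were tested among 21652 genes. The symbols also brought in a pseudogene (Atp5c1-ps) and the relatives Atp5s, Atp5sl, Cox7a2l and Ndufa4l2, which are not core subunits. Ndufa4 was counted in complex I by its symbol, although its protein is now placed in complex IV. Cox4i1, Cyc1 and the mitochondrially encoded subunits fell outside the rule and are described beside it.

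Oxidative phosphorylation takes place in the inner mitochondrial membrane. Complex I (NADH dehydrogenase) and complex II (succinate dehydrogenase) pass electrons to ubiquinone, complex III (cytochrome bc1) passes them to cytochrome c, and complex IV (cytochrome c oxidase) passes them to oxygen, while complex V (ATP synthase) uses the resulting proton gradient to make ATP. Most subunits are encoded in the nucleus and imported, and in complex IV several nuclear genes exist as a liver-type or ubiquitous isoform and a heart- and muscle-type isoform. Hepatocytes are rich in mitochondria and use this pathway to pay for urea, glucose and lipid synthesis.

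Liver RNA of 47 mice was hybridized to 1-color arrays, 1 array per mouse. All mice were 6-month-old C57BL/6J littermates from Pxr+/- breeding, either Pxr+/+ or Pxr-/-, the latter lacking the nuclear receptor PXR in the whole body. ATB mice drank ampicillin, neomycin and vancomycin in their water over 2 weeks, a mixture given to remove gut bacteria, Cont mice drank untreated water, and all were killed at ZT6. The male Pxr-/- Cont group had 5 mice and every other group 6. The mice of a group came from 2 cages, and which mice shared one is not given. The arrays lay on 6 slides washed in 3 batches, with between 31087 and 34477 gene probes well above background per array. Hepatocyte markers were well above background in every mouse (8 of 8, mean log2 signal 16.78 to 17.26). In bulk liver RNA, fewer cells of a type and less RNA per cell cannot be told apart.

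Nearly all of these genes were measured far above background. Of the 82 genes, 80 were well above background on all 47 arrays and 0 were saturated. Cox8b, a muscle-type subunit of complex IV, was well above background on 27 arrays, and Cox8c, a testis-type subunit, on 0 arrays, so that it was not tested. Both processings named next were used throughout. The first was CrossNorm, the method of the study, which normalizes stacks of arrays from different groups and so lets whole groups differ in overall level. The second was quantile normalization, which gives every array the same distribution. Calls required a limma p, adjusted by Benjamini-Hochberg over all tested probes, of at most 0.05 together with more than a 1.2-fold difference. All values are log2 signals of a probe, and probes of different genes are not compared with each other in level.

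Promoters (300 bases, 250 before the annotated start to 50 after it) were read from RefSeq (GRCm38.p6) for 68 of the 82 genes, which have 74 such windows. On either strand, the letters GCGCANGCG, the core of the motif of NRF1, a regulator of nuclear genes for mitochondria, were present in 28.4% of these windows and in 6.25% of all 32851 windows. The ETS motif CCGGAAG, bound by GABPA, was present in 21.6% against 8.86%, the YY1 motif AAGATGGCG in 12.2% against 1.40%, and the ERRA half-site AAGGTCA in 10.8% against 4.72%. A match describes letters only and is not evidence of binding. The promoters printed are those of Cox7a1, the gene that changed most, its liver-type counterpart Cox7a2, and, as genes with matches, Cox6a1 and Uqcrc1, with matches to the NRF1 or ETS letters in capitals. The windows of Cox7a1 (chr7:30183921-30184220, plus strand) and Cox7a2 (chr9:79759804-79760103, minus strand) hold 0 matches. Those of Cox6a1 (chr5:115348909-115349208, minus strand) and Uqcrc1 (chr9:108936398-108936697, plus strand) hold 4 and 3 matches. These lie in 3 and 2 stretches of capitals, because matches on opposite strands overlap in a stretch of each.
Cox7a1: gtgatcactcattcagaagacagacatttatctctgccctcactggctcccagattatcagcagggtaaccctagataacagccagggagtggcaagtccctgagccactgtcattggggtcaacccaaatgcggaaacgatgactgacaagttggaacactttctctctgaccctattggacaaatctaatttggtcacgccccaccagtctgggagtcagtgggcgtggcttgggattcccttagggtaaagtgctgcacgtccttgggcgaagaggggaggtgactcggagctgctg
Cox7a2: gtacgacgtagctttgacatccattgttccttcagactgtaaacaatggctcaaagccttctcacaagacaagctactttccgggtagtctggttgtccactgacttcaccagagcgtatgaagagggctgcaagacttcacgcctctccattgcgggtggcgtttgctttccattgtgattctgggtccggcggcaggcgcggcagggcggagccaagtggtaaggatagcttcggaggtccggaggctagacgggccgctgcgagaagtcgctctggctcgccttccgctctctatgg
Cox6a1: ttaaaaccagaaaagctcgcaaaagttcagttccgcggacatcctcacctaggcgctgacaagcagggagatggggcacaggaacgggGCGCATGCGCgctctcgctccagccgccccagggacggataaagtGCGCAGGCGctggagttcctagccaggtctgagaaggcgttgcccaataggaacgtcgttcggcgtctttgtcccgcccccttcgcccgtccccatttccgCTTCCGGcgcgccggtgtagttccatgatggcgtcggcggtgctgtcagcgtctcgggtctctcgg
Uqcrc1: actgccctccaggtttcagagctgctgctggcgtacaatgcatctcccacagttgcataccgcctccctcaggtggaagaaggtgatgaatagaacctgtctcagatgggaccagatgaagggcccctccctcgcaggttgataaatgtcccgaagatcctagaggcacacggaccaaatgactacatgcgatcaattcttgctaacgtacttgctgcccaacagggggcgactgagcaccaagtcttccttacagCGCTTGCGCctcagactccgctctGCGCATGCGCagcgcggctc

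ATB treatment lowered Cox7a1, the heart- and muscle-type isoform of subunit VIIa of complex IV, in males of both genotypes, and no other subunit gene was called for ATB. The array probe lies at chr7:30970337-30970948 (mm9, NM_009944). In Pxr+/+ males, the log2 signal of Cox7a1 under CrossNorm had a lowest, median and highest value of 9.36, 10.01 and 10.28 in Cont mice and of 8.89, 9.01 and 9.38 in ATB mice. All but 1 of the Cont mice lay above all ATB mice, and the groups overlapped only because Cont replicate 6 (9.36) lay just below ATB replicate 4 (9.38). In Pxr-/- males, the 5 Cont mice had 9.62, 9.77, 9.43, 9.48 and 9.74, and the ATB mice 8.50, 8.70 and 8.93. The groups did not overlap.

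The level of Cox7a1 was 1.89-fold lower with ATB in Pxr+/+ males (log2 change -0.92, SE 0.15, limma adjusted p = 0.000651) and 1.87-fold lower in Pxr-/- males (-0.91, SE 0.16, limma adjusted p = 0.00699). Under quantile normalization the changes were -1.02 (limma adjusted p = 5.62e-05) and -0.90 (limma adjusted p = 0.00365), and neither pair of groups overlapped. Within slides, the treated mouse was lower on 6 of 6 slides in Pxr+/+ males (-1.37 to -0.30) and on 5 of 5 in Pxr-/- males (-1.28 to -0.72). The difference between the effects in both genotypes was 0.01 (95% interval -0.43 to 0.46, limma adjusted p = 0.995).

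In females, Cox7a1 was not called for ATB. In Pxr+/+ females the lowest, median and highest values were 9.77, 10.36 and 10.49 in Cont and 9.17, 9.71 and 9.99 in ATB mice, a log2 change of -0.54 (95% interval -0.85 to -0.23, limma adjusted p = 0.225). In Pxr-/- females they were 9.48, 10.07 and 10.62 in Cont and 9.32, 9.63 and 9.76 in ATB mice, a change of -0.49 (-0.79 to -0.18, limma adjusted p = 0.165). The female groups overlapped in both genotypes, and the treated mouse was lower on 4 of 6 and on 5 of 6 slides. Without Cont replicate 1, the change in Pxr+/+ females was called. Tested directly, the ATB effect did not differ between males and females beyond its error: by -0.38 in Pxr+/+ mice (95% interval -0.81 to 0.05, limma adjusted p = 0.418) and by -0.42 in Pxr-/- mice (-0.86 to 0.02, limma adjusted p = 0.900).

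**Figure D1:**
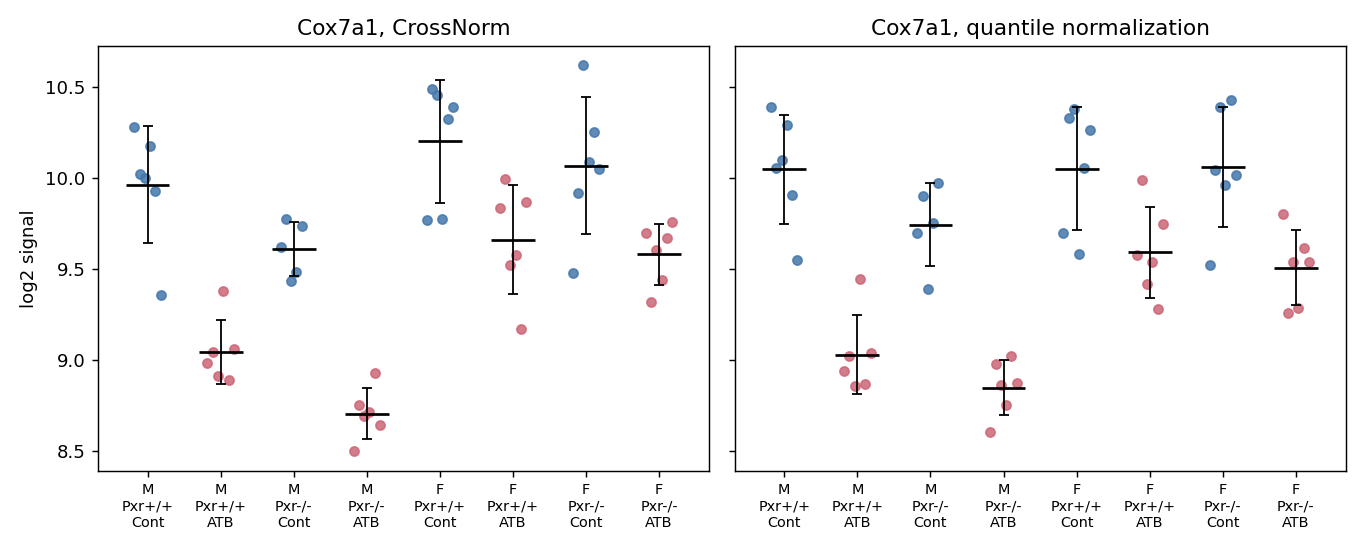
Log2 signal of Cox7a1 in each mouse (points) of the 8 groups under CrossNorm (left) and quantile normalization (right), with the group mean and SD. M is male, F is female, Cont is blue and ATB is red. In males the ATB mice sit at 8.50 to 9.38 and the Cont mice at 9.36 to 10.28 under CrossNorm, while the female groups overlap.

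Cox7a1 was also lower in males than in females wherever it was called for sex. With ATB the log2 change was -0.62 in Pxr+/+ mice (limma adjusted p = 0.00407) and -0.88 in Pxr-/- mice (limma adjusted p = 2.9e-05), and quantile normalization gave -0.56 (limma adjusted p = 0.00691) and -0.66 (limma adjusted p = 0.00157). Without ATB it was -0.46 in Pxr-/- mice (limma adjusted p = 0.0439), a call that quantile normalization did not keep (-0.32, limma adjusted p = 0.192), and -0.24 in Pxr+/+ mice (limma adjusted p = 0.211). Deletion of Pxr gave -0.35, -0.13, -0.34 and -0.08 in Cont males, Cont females, ATB males and ATB females, with 0 of the 4 called.

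The liver-type isoform Cox7a2 was not called for ATB. Its ATB changes were 0.07, -0.11, 0.01 and 0.09 in Pxr+/+ males, Pxr+/+ females, Pxr-/- males and Pxr-/- females under CrossNorm. With ATB, Cox7a2 was higher in males than in females in Pxr+/+ mice, with 15.31, 15.33 and 15.51 in males and 14.90, 15.10 and 15.37 in females. The groups overlapped, and the change was 0.28 (limma adjusted p = 0.00797), the opposite direction to Cox7a1. The difference between the Cox7a1 and Cox7a2 probes within the same array was chosen after the values were seen. A shift common to all probes of an array cannot change it, whereas quantile normalization can. Between ATB and Cont this difference changed by -0.99 in Pxr+/+ males, where the groups overlapped, and by -0.93 in Pxr-/- males, where they did not.

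Markers of other cell types were read beside Cox7a1. Of 7 skeletal muscle markers, 3 (Myh4, Mylpf and Tnnt3) were well above background on all 47 arrays and were tested, while Myh1 and Ckm were well above background on 0 arrays. Acta1 and Myl1 were not tested either. The mean of the tested muscle markers lay at 5.54 to 5.79 in Cont and 5.75 to 5.89 in ATB Pxr+/+ males, and at 5.58 to 5.85 and 5.57 to 5.76 in Pxr-/- males. Of 6 fat markers, 4 were tested, with means of 5.62 to 7.23 in Cont and 5.89 to 7.23 in ATB Pxr+/+ males, and of 5.87 to 7.52 and 6.17 to 7.83 in Pxr-/- males. In females the fat markers lay at 4.71 to 5.91. All 8 macrophage markers were tested, and their mean had a median of 10.83 in Cont and 10.40 in ATB Pxr+/+ males (range over both 9.76 to 11.05), and of 10.03 and 10.41 in Pxr-/- males (9.53 to 12.40). The part of any of these cells in the level of Cox7a1 was not tested.

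No other subunit gene was called for ATB in any of the 4 comparisons by either processing. Under CrossNorm, 1 of 81 subunit genes was called in Pxr+/+ males, beside 1.03% of all genes, 0 in Pxr+/+ females (0.0139% of all genes), 1 in Pxr-/- males (0.111%) and 0 in Pxr-/- females (0.0277%). At an unadjusted limma p under 0.05 the 4 comparisons gave 4, 2, 2 and 5 of 81 subunit genes, beside 4042, 2313, 1556 and 2518 of all 21652 genes. Quantile normalization gave the same counts of calls, 1, 0, 1 and 0, beside 1.15%, 0.0323%, 0.249% and 0.0878% of all genes. The 95% interval of the change lay within 1.5-fold in either direction for 79 of 81 genes in each of the 4 comparisons under CrossNorm. Of all 21652 genes, 18959, 19040, 19212 and 19203 met the same limit. Complex I subunits ranged from Ndufa8 at -0.39 in Pxr-/- males (limma adjusted p = 0.747) to Ndufv2 at 0.25 in Pxr+/+ males, neither called.

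**Figure D2:**
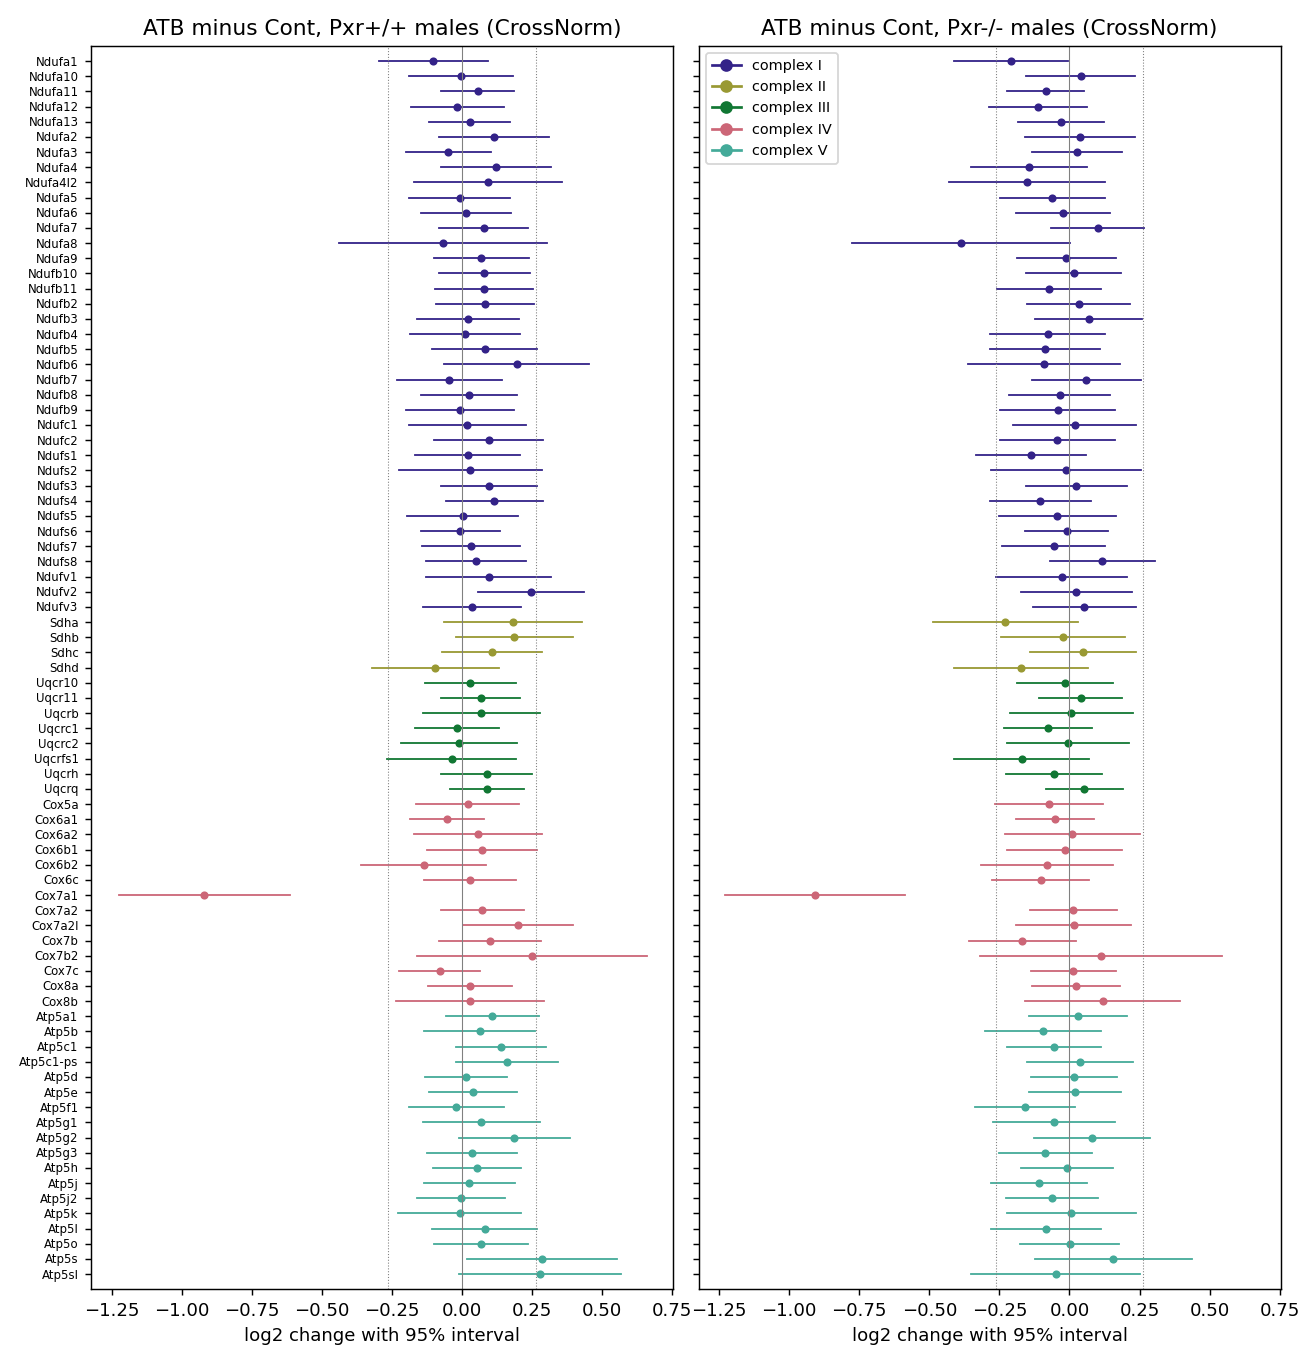
Log2 change with ATB (points) and its 95% interval (lines) for the 81 tested subunit genes in Pxr+/+ males (left) and Pxr-/- males (right), colored by complex. Dotted lines mark a fold change of 1.2 either way. Cox7a1 stands at -0.92 and -0.91, while the other genes lie between -0.39 (Ndufa8, Pxr-/- males) and 0.29 (Atp5s, Pxr+/+ males).

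The median change of the subunit genes with ATB lay slightly below that of all genes in all 4 comparisons, by either processing, although its own sign depended on the processing. Under CrossNorm it was 0.05, -0.08, -0.02 and 0.03 in Pxr+/+ males, Pxr+/+ females, Pxr-/- males and Pxr-/- females, beside 0.10, -0.06, 0.02 and 0.05 for all genes. Under quantile normalization it was -0.10, -0.07, -0.06 and -0.03, beside 0.00, 0.00, 0.01 and 0.00. The mean of the 81 genes per mouse under quantile normalization was 14.05, 14.08 and 14.12 (lowest, median, highest) in Cont Pxr+/+ males and 13.95, 13.98 and 14.03 in ATB Pxr+/+ males. These groups did not overlap, whereas under CrossNorm (13.90 to 14.06 against 13.92 to 14.11) they did. In every other pair of Cont and ATB groups, the means overlapped under quantile normalization too. They were 14.01 to 14.06 against 13.86 to 14.02 in Pxr-/- males, 13.92 to 14.045 against 13.87 to 13.97 in Pxr+/+ females, and 13.89 to 14.02 against 13.89 to 14.005 in Pxr-/- females.

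**Figure D3:**
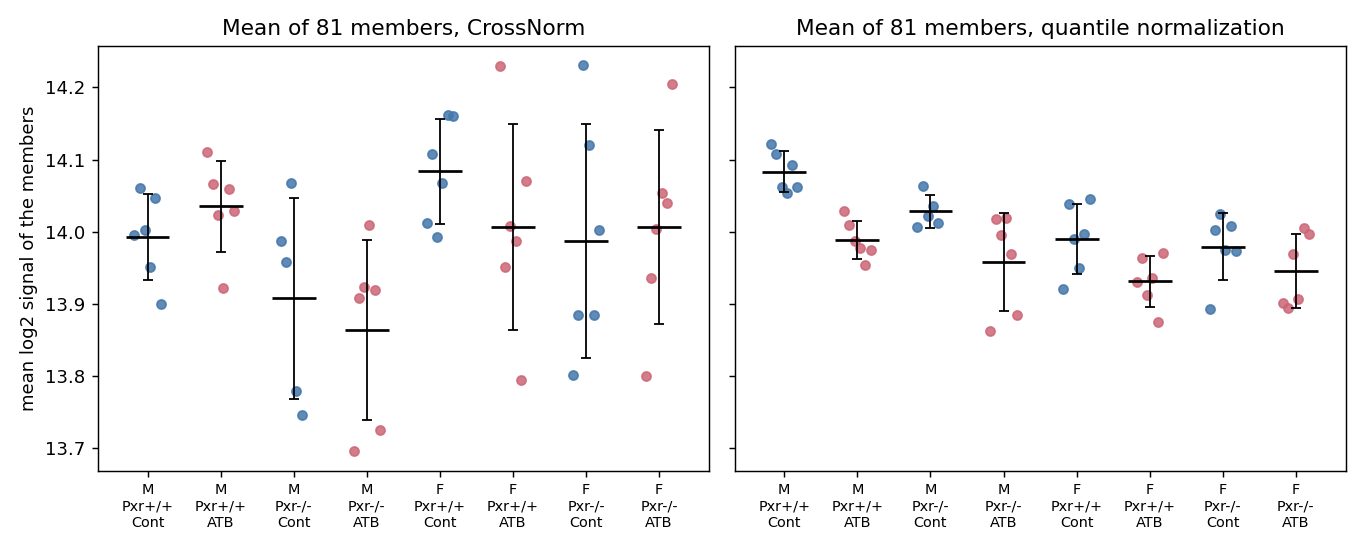
Mean log2 signal of the 81 tested subunit genes in each mouse (points) under CrossNorm (left) and quantile normalization (right), with group mean and SD (Cont blue, ATB red). The male Pxr+/+ Cont group has the highest median under quantile normalization (14.05 to 14.12), overlapping the male Pxr-/- Cont mice (14.01 to 14.06). Under CrossNorm it lies in the middle of the range.

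Deletion of Pxr was followed by few calls. The called genes numbered 0 in Cont males (0.189% of all genes), 0 in Cont females (3.19%), 1 in ATB males (0.901%) and 0 in ATB females (0.208%) under CrossNorm. At an unadjusted limma p under 0.05 there were 2, 7, 35 and 1 of the 81 subunit genes. Of all 21652 genes, 1126, 4645, 4961 and 1120 passed the same limit. Quantile normalization called 0 in each, beside 0.309%, 1.08%, 0.762% and 0.314% of all genes. Here 7, 6, 5 and 2 subunit genes had an unadjusted limma p under 0.05, beside 1454, 3024, 2408 and 1588 of all 21652 genes. In ATB males under CrossNorm, 79 of 81 subunit genes lay below 0, as did 17603 of all 21652 genes. The median of the subunit genes was -0.17 beside -0.13 for all genes, and -0.02 beside 0.00 under quantile normalization. Complex II, with 4 genes, had the lowest median of the 5 complexes there (-0.23 under CrossNorm, -0.09 under quantile normalization), followed by complex V (-0.20 and -0.06).

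The gene called in ATB males was Ndufs4, an accessory subunit of complex I needed for its full assembly. Its values were 13.40, 13.49 and 13.60 in Pxr+/+ ATB males and 13.13, 13.15 and 13.22 in Pxr-/- ATB males (lowest, median, highest). The groups did not overlap, and the change was -0.33 (SE 0.09, limma adjusted p = 0.0497). The call rested on the processing and on single mice. Quantile normalization gave -0.17 (limma adjusted p = 0.135), and leaving out Pxr+/+ replicate 1, 2, 3, 5 or 6 or Pxr-/- replicate 1, 2, 4 or 6 ended the call. In Cont males the change of Ndufs4 was -0.11, in Cont females -0.03 and in ATB females -0.02, with 0 called.

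The difference between the effects of 2 groups was called for 0 subunit genes in each of 5 tests under CrossNorm. These were the Pxr deletion effect in Cont males less Cont females (0.0231% of all genes called, 0 subunit genes at an unadjusted p under 0.05), the ATB effect in Pxr-/- less Pxr+/+ males (0.0185%, 2 genes) and in Pxr-/- less Pxr+/+ females (0%, 2 genes), and the ATB effect in males less females of Pxr+/+ (0.0416%, 4 genes) and Pxr-/- mice (0.00462%, 0 genes). In the same order, 955, 1094, 2038, 2801 and 1052 of all 21652 genes had an unadjusted limma p under 0.05.

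Sex gave most of the calls, and their direction depended on the processing. Under CrossNorm the sexes differed over the whole array, with a median of all genes of -0.20, -0.13, -0.04 and -0.17 (male minus female) in Pxr+/+ Cont, Pxr-/- Cont, Pxr+/+ ATB and Pxr-/- ATB mice. The subunit genes had medians of -0.09, -0.07, 0.03 and -0.14, each nearer to 0 or above it. Under quantile normalization their medians were 0.08, 0.06, 0.06 and 0.03, beside 0.01 for all genes in each. Of the 81 genes, 27, 37, 67 and 38 had the same sign by both processings. Relative to all genes, the subunit genes had the higher median in males by either processing, by amounts under the 1.2-fold threshold. No set of genes of similar brightness was put beside them here, and the part of signal level in this difference was not tested.

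**Figure D4:**
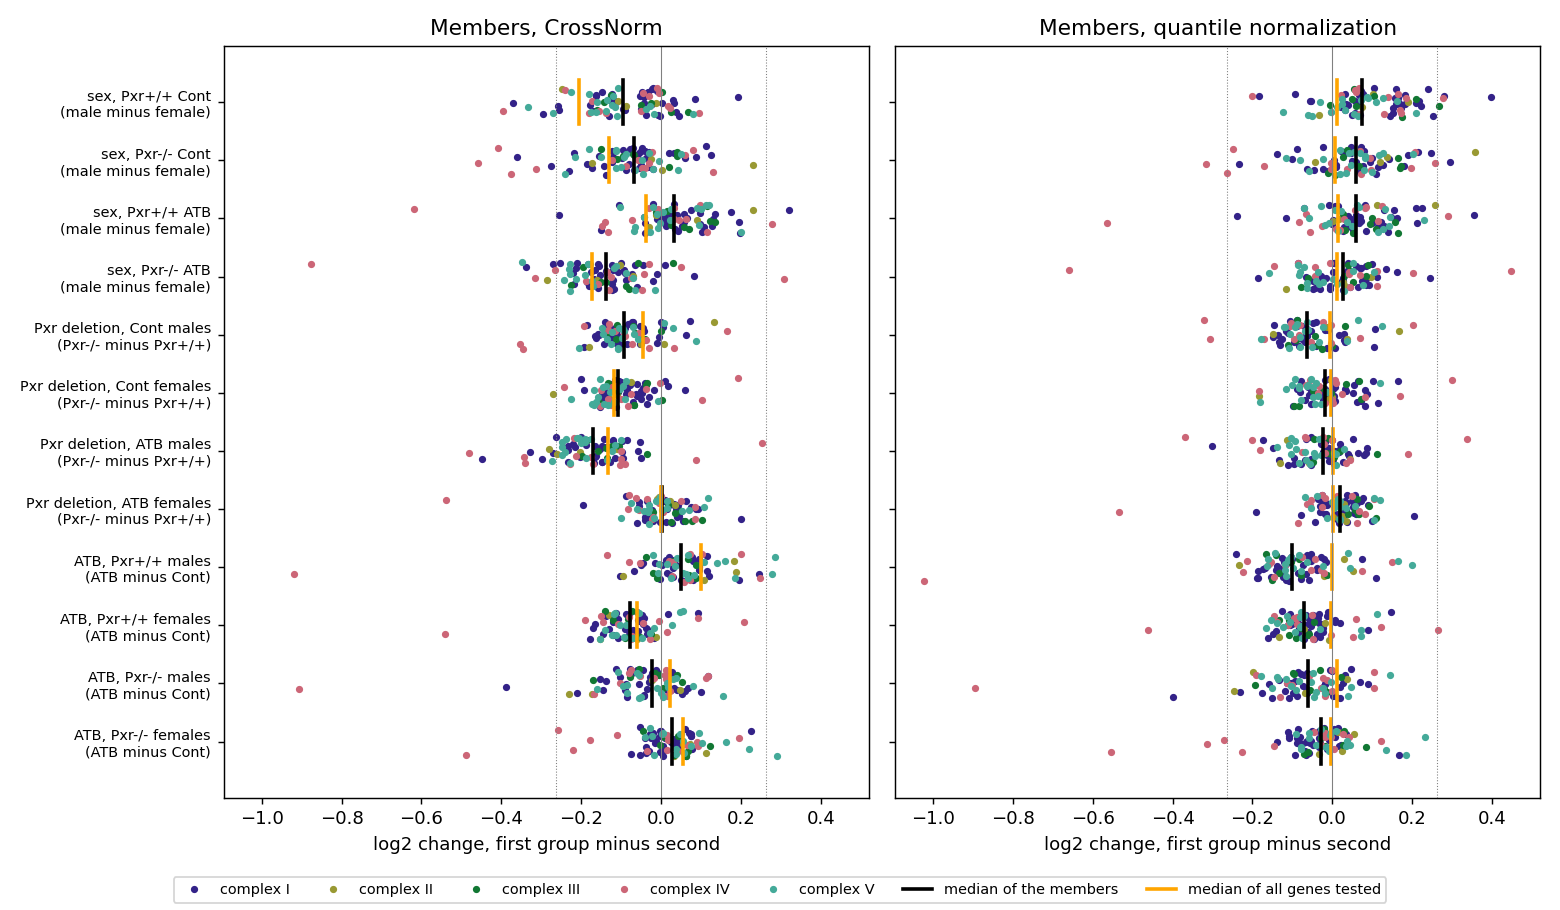
Log2 change of each tested subunit gene (points, colored by complex) in the 12 comparisons under CrossNorm (left) and quantile normalization (right). Black bars are the median of the subunit genes, orange bars the median of all genes tested, and dotted lines a fold change of 1.2. In the sex comparisons the black bar lies right of the orange bar in both panels, and Cox7a1 lies far to the left with ATB.

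Under CrossNorm, the subunit genes called lower in males numbered 3 in Pxr+/+ Cont mice, beside 30% of all genes, 4 in Pxr-/- Cont (13.7%), 1 in Pxr+/+ ATB (9.04%) and 5 in Pxr-/- ATB mice (23.3%). Those called higher numbered 0, 0, 1 and 0, beside 2.17%, 2.44%, 3.43% and 2.54%. Under quantile normalization, 0, 0, 1 and 1 were lower, beside 8.39%, 6.28%, 8.28% and 6.33%, and 3, 1, 2 and 1 were higher, beside 6.97%, 6.05%, 6.33% and 6.78%. Over all 12 comparisons, 17 of 972 pairs of a gene and a comparison were called under CrossNorm (1.75%, against 7.69% over all genes) and 11 under quantile normalization (1.13%, against 4.95%). By both, 5 pairs were called, and among the subunit genes only Cox7a1 and Cox7a2 were called at least once by each. Pooled over the 12 comparisons, the share of subunit genes called was below that of all genes by both processings. This did not hold in each comparison. For ATB, 1 of 81 was called in Pxr+/+ males and 1 of 81 in Pxr-/- males, beside 1.03% and 0.111% of all genes under CrossNorm. Quantile normalization gave the same counts, beside 1.15% and 0.249%. For Pxr deletion in ATB males under CrossNorm, 1 of 81 stood beside 0.901%.

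In complex I, the genes lower in males under CrossNorm were Ndufa7, an accessory subunit, and the iron-sulfur core subunits Ndufv2, Ndufs7 and Ndufs8. Ndufa7 had 14.69, 14.76 and 14.82 in Pxr+/+ Cont males and 14.89, 15.17 and 15.25 in females, without overlap. Its sex difference was -0.37, -0.36, -0.25 and -0.34 in Pxr+/+ Cont, Pxr-/- Cont, Pxr+/+ ATB and Pxr-/- ATB mice, with limma adjusted p of 0.000407, 0.00182, 0.0256 and 0.00149. In Pxr+/+ ATB mice this was below the fold threshold. Under quantile normalization Ndufa7 stayed lower in males in all 4, by -0.18, -0.23, -0.24 and -0.19 with limma adjusted p from 9.12e-05 to 0.00208, each under the fold threshold. 

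Ndufv2 was lower in Pxr+/+ Cont males (13.23, 13.32 and 13.38 against 13.47, 13.61 and 13.76 in females; -0.29, limma adjusted p = 0.0146), without overlap. Ndufs8 was lower in Pxr-/- Cont males, where the 5 males lay between 14.02 and 14.19 and the females between 14.12 and 14.54, with overlap (-0.28, limma adjusted p = 0.0379). Ndufs7 was lower in Pxr-/- ATB males (13.87 to 14.11 against 14.16 to 14.49, no overlap; -0.27, limma adjusted p = 0.0178). Quantile normalization gave -0.09, -0.14 and -0.08 for these, none called. It instead called a pair of accessory subunits higher in males: Ndufb3 in Pxr+/+ Cont mice (13.71, 13.89 and 13.97 against 13.37, 13.59 and 13.70, no overlap; 0.28, limma adjusted p = 0.00222) and Ndufb6 in Pxr+/+ ATB mice (0.36, limma adjusted p = 0.0203). Under CrossNorm these were 0.09 (limma adjusted p = 0.46) and 0.32 (limma adjusted p = 0.1). The smallest sex difference in complex I in Pxr-/- ATB mice was that of Ndufs6, -0.01.

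With the probe chosen for each gene, complexes II and III had 0 calls under CrossNorm. Quantile normalization called Sdha, the flavoprotein of complex II, higher in Pxr-/- Cont males (13.55, 13.82 and 13.90 against 13.23, 13.44 and 13.64 in females, with overlap; 0.36, limma adjusted p = 0.00363) and Uqcrc1, a core protein of complex III, higher in Pxr+/+ Cont males (14.17, 14.23 and 14.32 against 13.84, 13.98 and 14.06, no overlap; 0.27, limma adjusted p = 0.000197). Under CrossNorm Sdha was 0.23 (limma adjusted p = 0.223) and Uqcrc1 0.07 (limma adjusted p = 0.48). In Pxr-/- ATB mice, the largest and smallest sex differences under CrossNorm were those of Sdhd (-0.29, limma adjusted p = 0.0527) and Sdha (-0.07) in complex II, and of Uqcrb (-0.23, limma adjusted p = 0.0949) and Uqcrq (0.03) in complex III. Other probes of the same genes gave other values there. For Sdha, 2 other probes were called lower in males (-0.28, limma adjusted p = 0.0109, and -0.36, limma adjusted p = 0.00935), and for Uqcrb 1 other probe was (-0.39, limma adjusted p = 0.00481), so that these genes are uncertain. Under quantile normalization, another Sdha probe was called higher in Pxr-/- Cont males (0.32, limma adjusted p = 0.0255), like the chosen one. The Sdha probe with -0.28 was called higher in Pxr+/+ ATB males there (0.27, limma adjusted p = 0.0187). Another probe of Uqcr10 was called higher in Pxr+/+ Cont males by quantile normalization (0.31, limma adjusted p = 0.000694).

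In complex IV, the calls other than Cox7a1 for sex fell on the following isoforms and subunits. Cox6a2, the muscle-type isoform of subunit VIa, which was dim here, was lower in Pxr+/+ Cont males (5.23, 5.44 and 5.57 against 5.58, 5.80 and 6.09, no overlap; -0.40, SE 0.11, limma adjusted p = 0.00703) and in Pxr-/- Cont males (-0.37, limma adjusted p = 0.0265). Quantile normalization gave -0.20 and -0.25, neither called. Its liver-type counterpart Cox6a1 was 0.02 and -0.03 under CrossNorm. In Pxr-/- ATB mice, Cox7b, an X-linked subunit (-0.31, limma adjusted p = 0.00875), and Cox7a2l, a factor of respiratory supercomplexes (-0.27, limma adjusted p = 0.0353), were lower in males under CrossNorm and not called under quantile normalization (-0.15 and -0.09). Both overlapped between the sexes.

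Cox7a2 was higher in males by quantile normalization in Pxr+/+ Cont mice (15.30, 15.39 and 15.50 against 15.04, 15.11 and 15.19, no overlap; 0.28, limma adjusted p = 0.000237) and in Pxr+/+ ATB mice (0.29, limma adjusted p = 0.000132, no overlap), and was 0.10 under CrossNorm in the former. Cox8b was higher in Pxr-/- ATB males by quantile normalization (0.45, limma adjusted p = 0.00867), but it was well above background in 5 of 6 of these males and 2 of 6 of the females, and its values overlapped. The liver-type Cox8a stayed between -0.10 and 0.06 over the 12 comparisons under CrossNorm and between -0.15 and 0.14 under quantile normalization. Cox6b1 lay between -0.22 and 0.07, and the testis-type Cox6b2 between -0.31 and 0.19 under CrossNorm. Cox7b2, another testis-type gene, had the largest spread within groups of the 81 genes (SD 0.36) and lay between -0.54 and 0.25, with 0 calls. Cox4i1 and Cox4i2, outside the rule, were called in 0 comparisons by either processing.

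With the probe chosen for each gene, complex V had 0 calls by either processing. Other probes of its genes were called for 4 genes under CrossNorm, all lower: Atp5sl (-0.38, limma adjusted p = 0.00475), Atp5g1 (-0.27, limma adjusted p = 0.0178) and Atp5g3 (-0.36, limma adjusted p = 0.0233) in Pxr-/- ATB males against females, and Atp5b with Pxr deletion in Cont females (-0.51, limma adjusted p = 0.0359). Under quantile normalization the other probe of Atp5a1 was called higher in Pxr-/- Cont males (0.28, limma adjusted p = 0.027). In complex I, other probes of 6 genes were called lower in males under CrossNorm and those of 2 genes higher under quantile normalization. Over all complexes, 40 other probes of 30 genes were tested. Of these, 13 were called at least once under CrossNorm and 6 under quantile normalization, and 0 were called for ATB. Among all genes, 9.04% to 30% were called lower in males under CrossNorm and 6.05% to 6.97% higher under quantile normalization. For ATB, 0.0139% to 1.15% of all genes were called by either processing. The 3 genes for the identical c subunit, Atp5g1, Atp5g2 and Atp5g3, lay between -0.25 and 0.07, -0.23 and 0.22, and -0.25 and 0.20 over the 12 comparisons under CrossNorm. The largest sex difference in Pxr-/- ATB mice was that of Atp5sl (-0.35, limma adjusted p = 0.062) and the smallest that of Atp5g3 (-0.02), both by the chosen probe. Of the 3 X-linked genes, Ndufa1, Ndufb11 and Cox7b, 1 was called. In Pxr-/- ATB mice the sex differences of Ndufa1 and Ndufb11 were -0.17 and -0.21 under CrossNorm and -0.01 and -0.06 under quantile normalization.

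Across the mice of a group, the subunit genes varied together under CrossNorm and much less so under quantile normalization. The mean correlation of pairs of genes in their deviations from the group means over the 47 arrays was 0.612 under CrossNorm and 0.186 under quantile normalization, beside 0.179 and 0.00146 for pairs of all genes. By complex it was 0.655 in I, 0.586 in II, 0.703 in III, 0.390 in IV and 0.675 in V under CrossNorm. Mitochondrial ribosomal protein genes had 0.526 and 0.0746, and citric acid cycle genes 0.428 and 0.0492. Cytosolic ribosomal protein genes had 0.607 and 0.277, about as high as the subunit genes under CrossNorm and higher under quantile normalization. Such joint variation was therefore not particular to the subunit genes. These genes share the array and its overall brightness, and the values are descriptions. The median SD within groups was 0.146 for the subunit genes and 0.195 for all genes under CrossNorm.

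Neighbors of the complexes were read from lists chosen with results of these data known. Of the 11 mitochondrially encoded subunits tested, 0 of 132 pairs were called under CrossNorm and 4, all higher in males, under quantile normalization. The 51 assembly factors, which build the complexes, gave 27 calls under CrossNorm, 7 higher and 20 lower (4.41% of pairs, against 7.69% over all genes), and 25 under quantile normalization, all higher in males (4.08%, against 4.95%), and 0 of either set were for ATB. Both shares were below those of all genes. Under quantile normalization the complex IV factors Cox19, a copper chaperone, Coa5 and Cox18 were higher in males in all 4 sex comparisons (0.30 to 0.53), whereas under CrossNorm Cox19 and Coa5 were called in 2 of the 4 and Cox18 in 1. Regulators of mitochondrial biogenesis gave 18 calls of 192 pairs under CrossNorm, 2 higher and 16 lower (9.38%, against 7.69% over all genes), and 6 under quantile normalization, 5 higher and 1 lower (3.12%, against 4.95%). Of the 18, 17 were for sex, and the remaining call was Tfb1m, a mitochondrial transcription factor, higher with ATB in Pxr+/+ males (0.43, limma adjusted p = 0.0369, no overlap), which quantile normalization did not keep (0.31, limma adjusted p = 0.0577).

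Several genes beside the subunits had a sex difference by both processings. Atpif1, the inhibitor of ATP synthase, was lower in males in all 4 comparisons. In Pxr+/+ Cont mice it had 12.23, 12.43 and 12.65 in males and 13.04, 13.18 and 13.33 in females, and in Pxr-/- ATB mice 12.32, 12.45 and 12.64 and 13.07, 13.24 and 13.34. The sexes did not overlap in any of the 4, and the changes were -0.75, -0.76, -0.64 and -0.77 under CrossNorm (limma adjusted p from 6.62e-07 to 2.55e-05) and -0.53, -0.64, -0.62 and -0.58 under quantile normalization, all called.

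Idh2, the mitochondrial NADP-linked isocitrate dehydrogenase, was likewise lower in males in all 4 (-0.57, -0.66, -0.65 and -0.89, limma adjusted p from 3.43e-07 to 0.000409, no overlap) and was called by quantile normalization too. Ucp2, an inner membrane carrier, was lower in males in all 4 under CrossNorm (-0.94, -0.97, -0.67 and -0.40) and in 3 under quantile normalization, where Pxr-/- ATB mice gave -0.18. Macrophage markers, read in the same mice, also had lower medians in males in all 4 comparisons under CrossNorm: 10.83 against 11.71 in Pxr+/+ Cont mice, without overlap, 10.03 against 10.88 in Pxr-/- Cont, 10.40 against 11.13 in Pxr+/+ ATB and 10.41 against 10.69 in Pxr-/- ATB mice, each of the last 3 with overlap. Their part in the sex differences was not tested. Cycs, cytochrome c, was higher in males in all 4 under quantile normalization (0.28 to 0.36) and under CrossNorm only in Pxr+/+ ATB mice (0.33, limma adjusted p = 0.0172). None of these genes was called for ATB or for Pxr deletion by either processing.

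**Figure D5:**
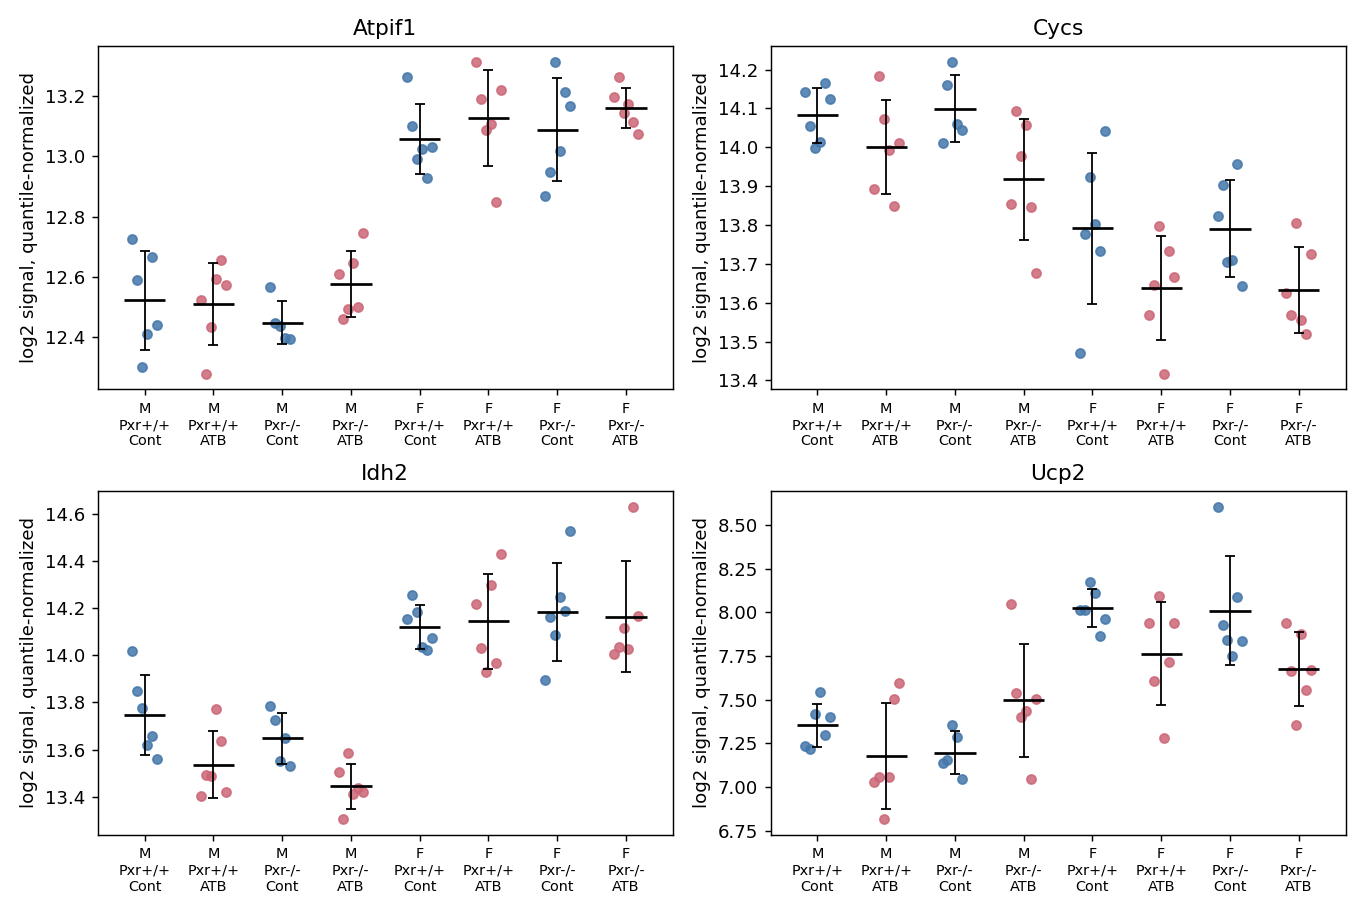
Quantile-normalized log2 signal of Atpif1, Cycs, Idh2 and Ucp2 in each mouse (points), with group mean and SD (Cont blue, ATB red). The mean of the males is below that of the females for Atpif1 and Idh2 in every pair of groups, and above it for Cycs.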

How the data were processed

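Liver RNA of 47 mice was measured on 1-color Agilent mouse arrays, 1 array per mouse, and mice were grouped by sex, Pxr genotype and treatment as the sample labels give them. The deposited files hold, for each spot, the linear intensity that the authors read with Agilent Feature Extraction 10.10.1.1 (per the labels and file headers): median and mean brightness, local background, and a processed signal with background and trend subtracted. The deposited value table holds log2 values that the authors filtered, corrected for the wash bath and normalized with CrossNorm.

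Here, log2 of the median signal was taken, 422 values of non-uniform spots were left out, and spots of a probe were averaged. A probe was kept (32979 of 56605) if 5 or more arrays of any group had it well above background. The wash batch was removed with group means kept, and CrossNorm was run on stacks of 1 array per group (300 draws, seed 1). The authors' filter and stacking are not given in the sources used here. The model held groups and wash batch (limma 3.58.1, R 4.3.3), and p-values are limma's, adjusted by Benjamini-Hochberg over all tested probes. The limma step was tested on simulated data. The gene set, the lists and the tests were chosen with earlier results of these data known. Genes named are those called by either processing, isoforms, X-linked and dim genes, and each complex's extremes in the sex comparison with most calls. Of the lists, only some of the called genes are named (up to 6 a list). Ucp3, Slc25a4 and Fh1 are among the called list genes not described. Probe coordinates are mm9, from the files, and 79 of the 82 accessions matched RefSeq. Of 69 pairs of mice sharing a replicate number, 17 had correlated deviations above 0.1 (range -0.34 to 0.55), so the numbers were not taken as pairs. Cages are not in the labels, so p-values measure the spread between these mice and an effect of cage was not tested. Alternatives were other normalizations (quantile, processed signal less its 75th percentile, normexp with quantile, the authors' values), filters, batch terms and subsets of mice. Scaling on spike-in probes and the male-minus-female tests of the ATB effect were chosen after seeing the data.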

Additional observations from a re-analysis of the deposited data

Results flagged for a closer look

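Of 88 sets of values examined (the 10 subunit genes called under CrossNorm and the mean of the subunit genes, in each of the 8 groups), 4 held a mouse far from the rest, and chance flags about 1 in 20, or 4.4 of 88. The distance is the gap to the nearest mouse as a share of the whole range, judged against Dixon's critical value. In male Pxr+/+ ATB mice it was 0.678 for Ndufv2 in replicate 4 (13.30, nearest 13.54), 0.658 for Cox7a1 in replicate 4 (9.38, nearest 9.06) and 0.628 for Cox6a2 in replicate 5 (5.97, nearest 5.48). In female Pxr+/+ ATB mice it was 0.631 for Cox6a2 in replicate 4 (5.31, nearest 5.60). The reason for these values was not tested.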

How the results depend on the processing

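Cox7a1 kept its direction and its call for ATB in males under every alternative run, with changes from -1.09 to -0.85 in Pxr+/+ males (limma adjusted p from 3.86e-05 to 0.00563) and from -0.98 to -0.86 in Pxr-/- males (0.00267 to 0.0369). The share of all genes called also moved with the processing. For sex in Pxr+/+ Cont mice it was 2.17% higher and 30% lower under CrossNorm, and 6.97% and 8.39% under quantile normalization. Shares over all genes are not given for the other settings, so their counts below cannot be set against all genes. The count of called subunit genes for sex did not hold. In Pxr+/+ Cont mice it was 3 (lower in males), and 3 and 3 (higher in males) under quantile normalization and normexp with quantile normalization, 21 (higher) with the processed signal, 1 with the authors' values, 7 on spike-in scaling, which was chosen after seeing the data, and 9 when every probe of a gene counted. In Pxr-/- Cont mice 4 became 1 under quantile normalization, 4 with the processed signal and 1 with normexp (each higher in males), 2 without the filter, 0 with only the 2 groups in the fit and 1 on spike-in scaling. In Pxr+/+ ATB mice 2 became 7 with the processed signal, 4 with normexp and 1 with only the 2 groups. In Pxr-/- ATB mice 5 became 2 under quantile normalization, 5 (4 higher, 1 lower) with the processed signal, 1 with normexp, 2 with the authors' values, 1 on spike-in scaling and 12 with every probe. For Pxr deletion, the count in Cont females went from 0 to 1 with every probe. In ATB males it went from 1 to 0 under quantile normalization, the processed signal, normexp, the authors' values, no filter, no wash batch, only the 2 groups and spike-in scaling.

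The replicate block raised that count to 2 and the one for sex in Pxr-/- ATB mice to 6, and changed no other count. The mouse numbers do not pair the mice. The median of the subunit genes moved, for sex in Pxr+/+ Cont mice, from -0.09 to 0.0752 (quantile), 0.20 (processed signal), 0.0839 (normexp) and 0.0192 (authors' values), in Pxr-/- Cont mice from -0.07 to 0.12 (processed signal) and in Pxr-/- ATB mice from -0.14 to 0.0270, 0.11 and 0.0150 (quantile, processed signal, normexp). For Pxr deletion it moved in Cont females from -0.11 to 0.0380 (processed signal) and in ATB males from -0.17 to -0.0226, -0.00633 and -0.0233, and for ATB in Pxr+/+ males from 0.05 to -0.10, -0.0778, -0.0922 and -0.0425 (authors' values). With the processed signal, the sex difference of Ndufv2 in Pxr+/+ Cont mice became 0.0223 and that of Cox7a2l in Pxr-/- ATB mice 0.00798. The cause was not tested.

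Leaving out 1 mouse gave 2 to 6 called genes for sex in Pxr+/+ Cont mice (6 without male replicate 2 or 5 or female replicate 1 or 3), 1 to 5 in Pxr-/- Cont mice (1 without male replicate 5 or female replicate 3 or 4, and 2 without male replicate 2 or 6), 1 to 3 in Pxr+/+ ATB mice (1 without female replicate 4) and 3 to 13 in Pxr-/- ATB mice (13 without female replicate 1, 10 without male replicate 4, 3 without female replicate 6). For Pxr deletion it gave 0 to 1 in Cont females (Cox5a without Pxr-/- replicate 3) and 0 to 2 in ATB males (2 without Pxr-/- replicate 5, and 0 without Pxr+/+ replicate 1, 2, 3, 5 or 6 or Pxr-/- replicate 1, 2, 4 or 6), and for ATB 0 to 1 in Pxr+/+ females (Cox7a1 without Cont replicate 1). Shares of all genes called without each mouse are not given, so these counts cannot be set against all genes. Cox8b was well above background on 27 of 47 arrays, which limits its values.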

Other observations

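Calls in gene lists outside the respiratory chain are given beside those of all genes, which made up 7.69% of pairs of a gene and a comparison under CrossNorm (86.6% of them lower) and 4.95% under quantile normalization (52.4% lower). Cytosolic ribosomal protein genes (symbols starting Rpl or Rps with a number, which also takes in S6 kinases and some pseudogenes; 94 tested) gave 3 calls higher and 29 lower under CrossNorm over the 12 comparisons, and 9 higher and 1 lower under quantile normalization (2.84% and 0.887% of pairs). Mitochondrial ribosomal protein genes (77 tested) gave 2 higher and 31 lower against 10 higher and 2 lower (3.57% and 1.3%). The vacuolar ATPase, which pumps protons into organelles, gave 2 higher and 17 lower against 2 higher and 5 lower (8.8% and 3.24%), and citric acid cycle enzymes 1 higher and 9 lower against 2 higher and 4 lower (5.95% and 3.57%). Inner membrane carriers and channels gave 12 calls lower and 0 higher under CrossNorm and 7 lower and 0 higher under quantile normalization (12.5% and 7.29%), all for sex.

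Of the regulators, Esrrg, a nuclear receptor of energy metabolism, was lower in males in Pxr+/+ ATB mice by both processings (-1.06, limma adjusted p = 0.000189, no overlap; quantile -0.97), and Esrra, its relative, was higher in the same mice (0.54, limma adjusted p = 0.0269; quantile 0.57).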
